A study of Nicotiana tabacum with 32 samples.

Results

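Methionine synthase (MS) and serine hydroxymethyltransferase (SHMT) were followed on the cDNA clones that carried exactly 1 of these gene symbols, 5 clones for MS and 1 for SHMT. These 6 clones were chosen among 15360 clones, each printed as 2 spots, of which 815 had exactly 1 symbol. The clones came from potato and read tobacco transcripts, so each may also bind RNA of related tobacco genes. The name table paired all 5 MS clones with gene 102577638 and the SHMT clone with gene 102591486, both of potato. The clones are numbered here in the order of their identifiers. Since all 5 of MS are assigned to 1 potato gene and were read on the same arrays, they are not replicates of a condition. The symbols were picked with their wild-type values and their values in silenced cells in view, so those levels are given as a description with no test.

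Methionine synthase transfers a methyl group from methyltetrahydrofolate to homocysteine and so makes methionine. Methionine is then activated to S-adenosylmethionine, the methyl donor of most cellular methylations and, in plants, the precursor of ethylene and polyamines. Serine hydroxymethyltransferase interconverts serine and glycine and loads the released carbon onto tetrahydrofolate, which supplies the methyl group that methionine synthase uses; in leaves its mitochondrial form is also an enzyme of photorespiration.

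All cells were suspension cultures of Nicotiana tabacum Xanthi grown in the dark at 25 °C, either wild type or carrying an RNA interference construct against SIPK, a mitogen-activated protein kinase of the plant defence response. Cells of each genotype were moved to fresh medium 3 days earlier, pooled and divided into 3 volumes of 10 ml, so the spread between arrays, and each p-value below, reflects volumes of 1 pooled culture. Each array compared 2 RNA samples in 2 colours, and each of its values is a log2 ratio. On 24 arrays, silenced cells (SIPK-Ri) were compared with wild-type cells given the same treatment, in 8 groups of 3 arrays. These groups were the biotic control (untreated, 0 h), harpin for 4 h and 8 h, megaspermin for 4 h and 8 h, the abiotic control (30 min with xanthine, sampled at 0 h), and xanthine oxidase for 4 h and 8 h after the same 30 min with xanthine. Harpin and megaspermin are proteinaceous elicitors of plant defence from a bacterium and from an oomycete, and xanthine oxidase with xanthine generates reactive oxygen. On 6 further arrays, wild-type cells after 4 h of harpin or of megaspermin were compared with untreated wild-type cells, in 2 groups of 3 arrays. Controls were sampled at 0 h only, so the effect of a treatment cannot be told apart from that of time in culture. The labels of the wild-type megaspermin arrays name a Pseudomonas source and those of the genotype arrays a Phytophthora source for the same elicitor.

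A positive ratio is read as a higher level in silenced cells on genotype arrays, and in treated cells on wild-type arrays. This direction is likely and not stated: the labels call those cells the query and the others the reference, while the array titles name the wild type first. If it were turned, every sign and every order given here would turn with it, and each fold would become its inverse. A lower ratio in these bulk cultures cannot separate fewer cells with a transcript from less of it in each cell. Values were present for between 25.5% and 65.0% of the 32448 spots of an array, and array medians lay between -0.066 and 0.070. Arrays of 1 group correlated over clones at r between 0.653 and 0.915, and 0 of 496 pairs of arrays held identical values. The depth of silencing was not measured, since no clone was recognised here as SIPK. MS clone 1 had no value on 1 wild-type harpin array, and all 6 clones passed the filter of 2 arrays with a value in each group of every comparison.

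In wild-type cells, the MS clones read lower after 4 h of megaspermin than before it on every array, and did not do so after harpin. The mean of the 5 MS clones after megaspermin was -0.83 ± 0.055 (SD, n = 3), 0.56 times the untreated level (1.78 times with the ratio turned). After harpin the array means were 0.33, 0.31 and 0.505, of which the last rests on 4 clones because clone 1 had no value there, and the 5 clone means averaged 0.34. MS clone 1 read -1.12, -1.10 and -1.19 on the 3 megaspermin arrays. The values of MS clone 2 were -0.53, -0.68 and -0.36, and those of MS clone 3 were -0.52, -0.40 and -0.40. MS clone 4 stood at -0.80, -0.82 and -1.12, and MS clone 5 at -1.34, -0.84 and -1.27. All 15 of these values lay below 0, with clones 1, 4 and 5 lower than clones 2 and 3 on each array.

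After harpin, the 5 clones of MS did not read alike. MS clone 2 stood at 1.32, 1.18 and 0.87, and on each array was above every other MS clone that had a value there. MS clone 3 gave 0.37, 0.49 and 0.51, and MS clone 5 gave 0.12, 0.10 and 0.54. MS clone 4 gave 0.13, -0.25 and 0.10 and MS clone 1 gave -0.29 and 0.05, values on both sides of 0. For all 5 MS clones the harpin arrays lay above the megaspermin arrays without overlap, by 1.01 ± 0.21 (SE) in clone 1, 1.64 ± 0.19 in clone 2, 0.90 ± 0.23 in clone 3, 0.91 ± 0.18 in clone 4 and 1.40 ± 0.22 in clone 5. Over all 6032 clones measured in that comparison, 13.9% passed an adjusted p of 0.05 in limma in either direction, and 6.93% were higher with harpin. The share of all clones with arrays apart was not counted. MS was chosen on this comparison, so nothing is read from the set of 5 or from the separation of its arrays.

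SHMT showed no such separation of the elicitors in wild-type cells. It read 0.29, 0.66 and 0.15 after harpin, a mean of 0.37 ± 0.26 (SD, n = 3), and 0.54, 0.04 and -0.02 after megaspermin, a mean of 0.19 ± 0.30 (SD, n = 3). The 2 groups of arrays overlapped, and the difference of 0.18 ± 0.24 (SE) was smaller than its error.

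On the genotype arrays, the mean of the MS clones was highest after megaspermin and lowest after 4 h of harpin. In order, it stood at 1.08 ± 0.40 (SD, n = 3) after megaspermin for 8 h, 0.96 ± 0.14 after megaspermin for 4 h, 0.82 ± 0.023 after xanthine oxidase for 4 h and 0.76 ± 0.15 after harpin for 8 h. The lower values were 0.72 ± 0.18 in the abiotic control, 0.40 ± 0.26 after xanthine oxidase for 8 h, 0.20 ± 0.22 in the biotic control and 0.07 ± 0.19 after harpin for 4 h. Each pair of neighbours in this order overlapped in its arrays. The highest mean was 2.11 times and the lowest 1.05 times the wild-type level (0.473 and 0.950 times, in reversed order, with the ratio turned).

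Single arrays show the spread behind these means. In the biotic control, MS clone 1 gave 0.09, -0.15 and 0.33, clone 2 gave 0.16, 0.23 and 0.38, clone 3 gave 0.05, 0.10 and 0.45, clone 4 gave 0.09, 0.01 and 0.34, and clone 5 gave 0.10, 0.03 and 0.73. Array 3 was the highest for each of these clones, and 14 of the 15 values were above 0. After harpin for 4 h, the 5 clones ranged from -0.42 to 0.62, with values on both sides of 0 in clones 1 to 4.

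Megaspermin for 4 h placed all 15 MS values above 0. MS clone 1 gave 0.77, 0.61 and 0.91, clone 2 gave 0.89, 1.26 and 1.09, clone 3 gave 0.83, 1.40 and 1.07, clone 4 gave 0.73, 1.09 and 0.87, and clone 5 gave 0.75, 0.89 and 1.15. The lowest of them, 0.61, was above every MS value of the biotic control other than the 0.73 of clone 5. After 8 h the same clones ranged more widely, from 0.33 in clone 1 to 2.08 in clone 3, and the first array of that group was the lowest for all 5.

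Harpin for 8 h gave MS values between 0.15 and 1.42. Clones 2, 3 and 5 averaged 0.93 ± 0.10, 0.95 ± 0.28 and 1.24 ± 0.20 (SD, n = 3), and clones 1 and 4 averaged 0.30 ± 0.19 and 0.40 ± 0.07. Clones 1 and 4 were also the lowest of the 5 on the wild-type harpin arrays, by their means.

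In the 3 groups that had received xanthine, MS clones 2, 4 and 5 were above 0 on every array. MS clone 2 averaged 1.08 ± 0.13, 1.28 ± 0.05 and 0.99 ± 0.31 (SD, n = 3) in the abiotic control and after 4 h and 8 h of xanthine oxidase. MS clone 1 read low in the same RNA, at 0.25 ± 0.27, 0.15 ± 0.09 and -0.43 ± 0.16 (SD, n = 3), and after 8 h its values of -0.34, -0.33 and -0.61 were all below 0. The means of clones 3 and 4 lay between those of clones 1 and 2 in each of these groups, and after 8 h they were 0.37 ± 0.41 and 0.42 ± 0.31. Over all 24 genotype arrays, clone 5 was above 0 on 24, clones 2, 3 and 4 on 22 each and clone 1 on 17.

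**Figure D1:**
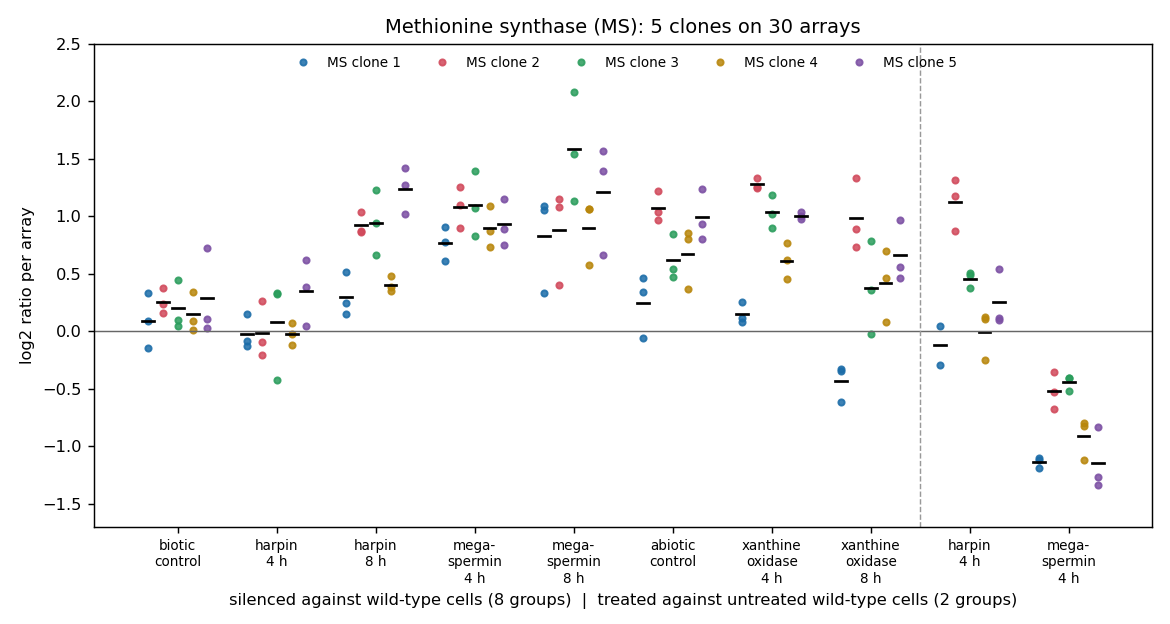
Log2 ratio of silenced over wild-type cells in 8 groups and of treated over untreated wild-type cells in 2 groups (vertical axis) for each MS clone; points are arrays (3 in a group, 2 for clone 1 with wild-type harpin) and black bars their means. In the genotype groups, the MS clone means lie between -0.02 and 0.35 in the biotic control and after harpin for 4 h, and between 0.77 and 1.59 after megaspermin; in wild-type cells after megaspermin they lie between -1.15 and -0.44.

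SHMT was highest in silenced cells where MS was lowest. Its values after harpin for 4 h were 1.48, 1.11 and 1.26, a mean of 1.28 ± 0.18 (SD, n = 3) or 2.43 times the wild-type level (0.411 times with the ratio turned). In the biotic control it gave 0.997, 0.69 and 0.63, so the arrays of harpin for 4 h were all above those of the next group in order. The other means were 0.75 ± 0.35 after harpin for 8 h, 0.60 ± 0.31 after xanthine oxidase for 8 h, 0.49 ± 0.62 after megaspermin for 4 h, 0.29 ± 0.09 after xanthine oxidase for 4 h, 0.25 ± 0.19 after megaspermin for 8 h and 0.12 ± 0.19 in the abiotic control. Neighbours below the first place overlapped. SHMT was above 0 on 22 of the 24 genotype arrays.

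The largest SD of SHMT among the 10 groups went with a single array. After megaspermin for 4 h the clone gave -0.22, 0.83 and 0.87, and on the first of these arrays its 2 spots read -1.51 and 1.07, a difference of 2.58. The next largest difference between its spots was 0.933. Its median spot difference over 28 arrays was 0.329, above the 90th percentile of 0.276 over 8724 clones, while the medians of the MS clones lay between 0.072 and 0.099.

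**Figure D2:**
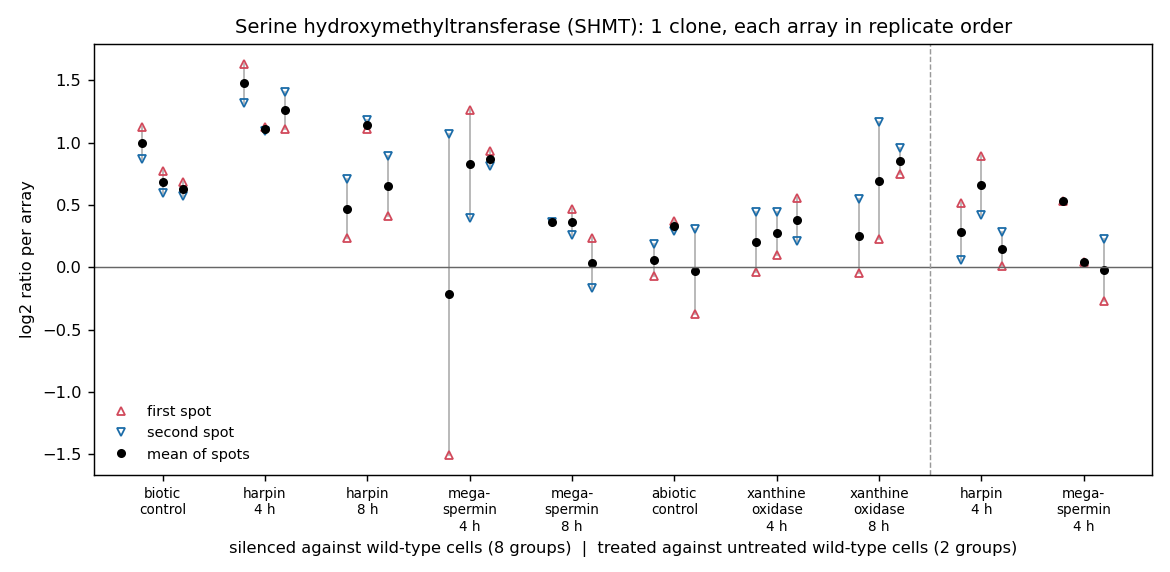
Log2 ratio of the SHMT clone (vertical axis) on each array of the 8 genotype and 2 wild-type groups, in replicate order; triangles are its first and second spot, joined by a line, and black points their mean. The 3 means of harpin for 4 h, between 1.11 and 1.48, lie above those of the biotic control, and the spots of the first array of megaspermin for 4 h lie at -1.51 and 1.07.

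Whether silencing acted alike in treated and control cells was asked by subtracting the biotic control from each elicitor group, in 1 limma fit over all clones with Benjamini-Hochberg adjustment. The group means behind each difference were in view when the genes were chosen, so no p-value for MS or SHMT below is independent of that choice. With megaspermin, the effect of silencing on MS was larger than in untreated cells, in all 5 clones and at both times. At 4 h, the difference in limma was 0.67 ± 0.19 (SE, adjusted p = 0.0129) in clone 1, 0.82 ± 0.19 (0.00231) in clone 2 and 0.90 ± 0.23 (0.00639) in clone 3. It was 0.75 ± 0.18 (adjusted p = 0.00382 in limma) in clone 4 and 0.64 ± 0.22 (0.046) in clone 5. All 3 treated arrays were above all 3 control arrays for each of the 5 clones. How many of all clones had arrays apart was not counted, in this or any other comparison, so nothing is read from such separation. Of all 8338 clones tested, 9.05% were higher at an adjusted p under 0.05 in limma. The median difference was 0.014 against 0.75 for the MS clones. Clone 1 lost its call without the second biotic control array (0.56, adjusted p = 0.0849 in limma). Clone 5 lost its call without the first (0.55, 0.17) or second (0.51, 0.195) biotic control array, or megaspermin array 2 (0.66, 0.0782) or 3 (0.53, 0.138), and held it in 5 of 16 alternatives.

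After 8 h of megaspermin, the effect of silencing again exceeded that in the biotic control in all 5 MS clones. No array measured the response of wild-type or silenced cells to 8 h of megaspermin. The difference was largest in clone 3, at 1.39 ± 0.23 (SE, adjusted p = 5.27e-05 in limma). It was 0.73 ± 0.19 (adjusted p = 0.00464 in limma) in clone 1 and 0.62 ± 0.19 (0.0146) in clone 2. In clone 4 it was 0.75 ± 0.18 (adjusted p = 0.00255 in limma) and in clone 5 0.92 ± 0.22 (0.00285). The arrays stood apart for clones 2, 3 and 4 and overlapped for clones 1 and 5. Over 9496 clones, 13.4% were higher, with a median difference of -0.04 against 0.75 for MS. Clone 2 lost its call without the first biotic control array (0.57, adjusted p = 0.0597 in limma) or without megaspermin array 2 (0.48, 0.0985) or 3 (0.52, 0.0601), and with arrays scaled to a common spread (0.48, 0.0683). Between 4 h and 8 h of megaspermin, 0 of the 6 clones passed in limma, with 1 at an unadjusted p under 0.05 and 15.8% of 8176 clones called. The largest of these differences was 0.49 ± 0.23 in MS clone 3 (adjusted p = 0.149 in limma), which passed without the first 8 h array (0.71, 0.0438).

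SHMT did not pass the test with megaspermin. Its difference from the biotic control was -0.28 ± 0.24 at 4 h (SE, adjusted p = 0.472 in limma), with overlapping arrays. At 8 h it was -0.52 ± 0.24 (adjusted p = 0.108 in limma), with all 3 treated arrays below the control arrays.

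Harpin for 4 h left no MS call against the biotic control. The differences in the 5 clones were -0.11, -0.27, -0.12, -0.17 and 0.06, with adjusted p between 0.384 and 0.899 in limma and overlapping arrays in each. SHMT differed by 0.51 ± 0.24 (SE, adjusted p = 0.158 in limma), with all 3 harpin arrays above the control arrays. In all, 0 of the 6 clones passed in limma and 1, SHMT, had an unadjusted p under 0.05, against 14.2% of 8429 clones called.

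Between 4 h and 8 h of harpin, the effect of silencing rose past the threshold in MS clones 2, 3 and 5. The group means of both times were in view when the genes were chosen, so the p-values given here are not independent of that choice. The differences were 0.94 ± 0.19 (SE, adjusted p = 0.000598 in limma), 0.87 ± 0.23 (0.00752) and 0.89 ± 0.22 (0.00516), and the arrays of the 2 times did not overlap. Clone 4 differed by 0.42 ± 0.18 (adjusted p = 0.0989 in limma), also with no overlap, and clone 1 by 0.32 ± 0.19 (0.243). Of 7675 clones, 10.4% were higher at 8 h. MS clone 3 lost its call without the second 4 h array (0.62, adjusted p = 0.0774 in limma) or the first 8 h array (0.73, 0.0549). SHMT differed by -0.53 ± 0.24 (adjusted p = 0.118 in limma) and passed without the second 8 h array (-0.72, 0.0484). Set against the biotic control, the 8 h harpin values of MS differed by 0.21, 0.67, 0.75, 0.25 and 0.95 in clones 1 to 5 and that of SHMT by -0.02; these were in view when the genes were chosen and carry no test.

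The elicitors were compared directly at each time, and at 4 h the differences of MS and SHMT had opposite signs. The group means behind these comparisons were in view when the genes were chosen. No p-value given for them is independent of that choice. At 4 h, the effect of silencing was lower with harpin than with megaspermin by 0.79 in MS clone 1 (difference -0.79 ± 0.19, SE, adjusted p = 0.00431 in limma). The differences were -1.09 ± 0.19 (adjusted p = 0.000175 in limma) in clone 2, -1.02 ± 0.23 (0.00243) in clone 3 and -0.92 ± 0.18 (0.000676) in clone 4. MS clone 5 differed by -0.58 ± 0.22 (adjusted p = 0.0749 in limma) and did not pass. In all 5 MS clones the 3 harpin arrays lay below the 3 megaspermin arrays. Of 7688 clones, 8.98% were called lower in limma, and the share with arrays apart was not counted.

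SHMT went the other way at 4 h, higher with harpin by 0.79 ± 0.24 (SE, adjusted p = 0.0205 in limma), with no overlap of the arrays and 7.62% of clones higher. That call was lost with the 2 groups fitted alone (adjusted p = 0.125 in limma) and without the first harpin array (0.69, 0.0835). It was also lost, with the difference falling to 0.43 (adjusted p = 0.183 in limma), without the first megaspermin array, the one on which its spots disagreed. Taken spot by spot, the difference was 1.06 (adjusted p = 0.0851 in limma) on the first spots and 0.51 (0.0767) on the second.

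At 8 h, the elicitor difference in the effect of silencing on MS was smaller and rested on single arrays. Clones 1, 3 and 4 were lower with harpin by -0.52 ± 0.19 (SE, adjusted p = 0.0387 in limma), -0.64 ± 0.23 (0.0376) and -0.50 ± 0.18 (0.0388), and clones 2 and 5 differed by 0.05 and 0.03. The arrays stood apart in clone 4 alone, and 15.4% of 8052 clones were lower. All 3 calls were lost when array 2 or array 3 of harpin or of megaspermin was left out, which left 0 of the 6 clones called. SHMT stood 0.50 ± 0.24 higher with harpin (adjusted p = 0.114 in limma), with all harpin arrays above the megaspermin arrays.

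**Figure D3:**
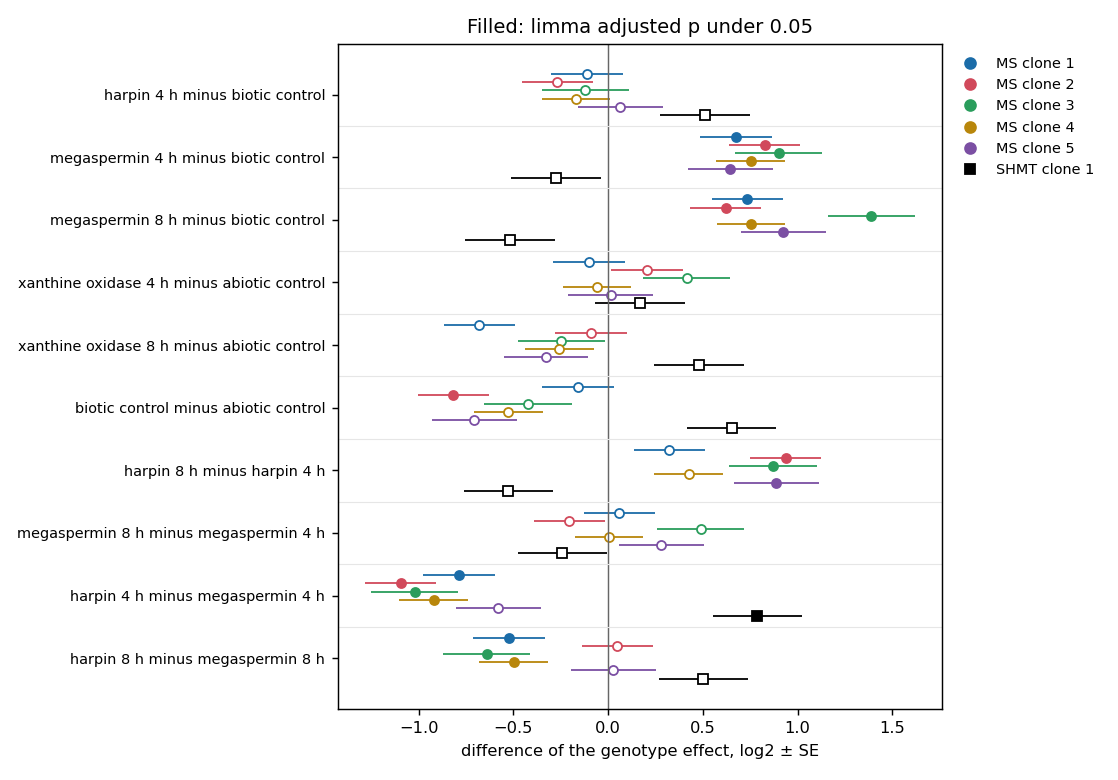
Difference in the effect of silencing (log2, horizontal axis) for each MS and SHMT clone in the 10 tested comparisons; points are limma estimates and bars their standard errors, and filled points passed an adjusted p of 0.05. All 5 MS clones lie to the right for megaspermin against the biotic control at both times, and SHMT lies opposite to them for harpin against megaspermin at 4 h.

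Against the abiotic control, no MS or SHMT clone passed the test with xanthine oxidase. At 4 h the differences lay between -0.10 and 0.41, and the arrays stood apart in MS clones 2 and 3, with 0 of 6 clones called in limma, 0 at an unadjusted p under 0.05 and 0.0563% of 8884 clones called. Same-numbered arrays deviated together in this comparison, and with the replicate number as a block the count over all clones was 0 in place of 5, and 0 again among the 6. At 8 h, 0 of 6 passed in limma, 1 had an unadjusted p under 0.05, and 0.302% of 8285 clones were called. The largest difference was -0.68 ± 0.19 in MS clone 1 (SE, adjusted p = 0.154 in limma), whose treated arrays were all below the control arrays, and SHMT differed by 0.48 ± 0.24 (0.581).

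The 2 sets of control cells, which differ in the 30 min with xanthine, gave 1 call among the 5 MS clones for a difference in the effect of silencing. MS clone 2 was lower in the biotic than in the abiotic control by -0.82 ± 0.19 (SE, adjusted p = 0.00938 in limma). The arrays also stood apart in clones 3, 4 and 5, at -0.42 ± 0.23 (adjusted p = 0.467 in limma), -0.53 ± 0.18 (0.119) and -0.71 ± 0.22 (0.0808), while clone 1 overlapped at -0.16 ± 0.19 (0.876). Of 10223 clones, 1.88% were lower, and the unadjusted p was under 0.05 in 3 of the 5 MS clones. Clone 2 lost its call without the first biotic control array (-0.77, adjusted p = 0.0584 in limma) or the second abiotic one (-0.75, 0.059), and clone 5 gained one without the third biotic control array (-0.93, 0.0263). SHMT differed the opposite way by 0.65 ± 0.24 (adjusted p = 0.15 in limma), its biotic control arrays all above its abiotic ones.

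The response of the silenced cells to each elicitor was not measured on an array. It can be added up from the wild-type response and the 2 effects of silencing, if the wild-type RNA on both kinds of array was alike, which the labels do not state. For megaspermin at 4 h the sums were -0.46 ± 0.23 (SE) in MS clone 1, 0.30 ± 0.23 in clone 2, 0.46 ± 0.28 in clone 3, -0.16 ± 0.22 in clone 4 and -0.50 ± 0.27 in clone 5. They stand beside wild-type responses of -1.14, -0.52, -0.44, -0.91 and -1.15 in the same order. For harpin at 4 h the sums were -0.24 ± 0.25, 0.85 ± 0.23, 0.34 ± 0.28, -0.18 ± 0.22 and 0.31 ± 0.27, beside wild-type responses of -0.12, 1.12, 0.46, -0.01 and 0.25. SHMT summed to 0.88 ± 0.29 with harpin and -0.09 ± 0.29 with megaspermin. These sums share arrays with the values above and carry no test.

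**Figure D4:**
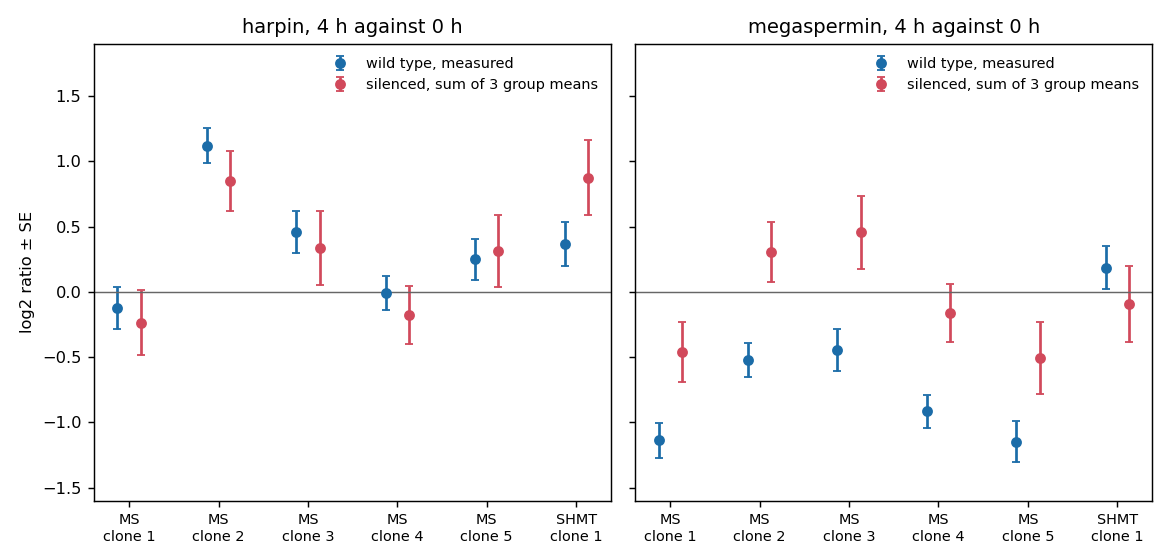
Response to 4 h of harpin (left) or megaspermin (right) as a log2 ratio (vertical axis) for the 5 MS clones and the SHMT clone; blue points are the measured wild-type means, red points the sums of 3 group means that stand for silenced cells, and bars are standard errors from limma. With megaspermin the wild-type points of MS lie between -1.15 and -0.44 and the sums between -0.50 and 0.46.

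The other enzymes around methionine on the array were few. Of 103 symbols listed for methionine, folate and linked amino acid metabolism, 6 were found, on 15 clones, 9 of them for METK1, the S-adenosylmethionine synthetase that uses the methionine made by methionine synthase. CBL, on 2 of these clones, is a symbol used for more than 1 kind of protein, so those clones may not belong to methionine metabolism and are not described. With megaspermin for 4 h, 3 of 9 METK1 clones were called higher in the effect of silencing than in the biotic control. Their differences were 0.70 ± 0.17, 0.49 ± 0.16 and 0.62 ± 0.20 (SE, adjusted p = 0.00484, 0.0364 and 0.0351 in limma). The 9 ranged from -0.32 to 0.70, beside the 9.05% of all clones that were called higher. At 8 h, 0 of 9 METK1 clones passed in limma, with 2 at an unadjusted p under 0.05, and they ranged from -0.64 to 0.08, where all 5 MS clones had passed and 25.8% of all clones were called in either direction. Between 4 h and 8 h of megaspermin, 3 of 9 METK1 clones were called lower, by 1.02, 0.71 and 0.75, and the 9 ranged from -1.02 to -0.09. There 0 of 5 MS clones passed, and 6.71% of all clones were called lower. With harpin against megaspermin at 4 h, 2 of 9 METK1 clones were called lower, the direction of the MS clones. Their differences were -0.56 (adjusted p = 0.045 in limma) and -0.77 (0.00945). The 9 ranged from -0.77 to 0.37, beside 8.98% of all clones called lower. At 8 h, 1 of 9 was called higher, by 0.58 (adjusted p = 0.0423 in limma), beside 12.3% of all clones. The differences between the enzymes were not themselves tested.

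METK1 and MS lay on opposite sides of 0 in wild-type cells given megaspermin. The group means of 8 METK1 clones with megaspermin lay between 0.27 and 0.9995, where those of the 5 MS clones lay between -1.15 and -0.44. In the biotic against the abiotic control, 8 of 9 METK1 clones were called lower, with differences from -1.71 to -0.58 in the 9. All 5 MS clones also had negative differences and 1 of them was called, beside 1.88% of all clones called lower. ARD, an acireductone dioxygenase that returns methylthioadenosine carbon to methionine, was measured by 1 clone. Its effect of silencing was lower with megaspermin for 8 h than in the biotic control, by 0.87 ± 0.19 (SE, adjusted p = 0.00117 in limma). There 12.4% of all clones were lower. The ARD ratio of silenced over wild-type cells averaged 1.15 in the biotic control and 0.28 after megaspermin for 8 h. In wild-type cells, ARD averaged 0.50 after megaspermin for 4 h. From 4 h to 8 h of megaspermin the effect of silencing on ARD differed by -0.66 (adjusted p = 0.019 in limma), where 6.71% of all clones were lower. With harpin against megaspermin at 8 h it was higher by 0.59 (adjusted p = 0.0221 in limma), beside 12.3% of all clones. Threonine synthase (TS), which draws on the precursor that methionine synthesis shares, and the branched-chain aminotransferases BCAT1 and BCAT2 gave 0 calls in limma in 22 tests, 4 of them with an unadjusted p under 0.05. In these comparisons, between 0.0563% and 27.7% of all clones were called.

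The MS clones followed each other over arrays and SHMT did not follow them. The 24 genotype arrays and 6 wild-type arrays, which hold different ratios, were pooled for this. The wild-type megaspermin arrays, with all 5 MS clones below 0, are among them. Correlations within each kind of array were not computed. Over 29 or 30 arrays, Pearson's r between pairs of MS clones lay between 0.614, for clones 1 and 2, and 0.898, with a median of 0.836 over 10 pairs. Between SHMT and the MS clones r lay between -0.246 and 0.013, with a median of -0.089. Arrays of a group came from 1 pooled culture of each genotype, and the clones of MS share their gene assignment, so the values are descriptions. On the 2 arrays with exchanged dyes, which carry the labels of the abiotic control and of wild-type harpin, MS clones 1 to 5 read 0.38, 1.20, 0.76, 0.62 and 1.18 in the abiotic control, and clones 1 to 4 read -0.03, 1.20, 0.54 and 0.10 with harpin. Clone 2 was the highest of the MS clones that had a value on each of them.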

How the data were processed

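2-colour cDNA arrays were read from the submitters' value table. Its values are taken as log2 ratios that the authors had normalized within each array before they were deposited, since array medians lie near 0. The log base, the normalization and the filter on spots are not given in the sources used. The 2 arrays with exchanged dyes correlated with the mean of their group at r of 0.715 and 0.885, so their sign had already been turned, and they were kept out of the fits. All 30 other columns were used, with 0 columns left out.

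Both spots of a clone were averaged. The printing layout pairs 15360 clones and leaves 1728 spots unpaired; all 905 clones that the name table pairs obey it. A mean per group was fitted with limma 3.58.1 (R 4.3.3, lmFit and eBayes) over all 10 groups. Clones with a value on at least 2 arrays of each group compared were tested, with Benjamini-Hochberg adjustment over all of them. A call is an adjusted p under 0.05. On simulated data for harpin 8 h minus 4 h the procedure was tested before use. Group values are means ± SD over arrays, and differences carry limma's standard error. Tables and figures used Python 3.11.15.

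Clones were named where the name table gives exactly 1 symbol, MS or SHMT. Related enzymes were looked up by symbol, and the 5 named clones with the most similar group means were listed for each gene. The members, the lists and the comparisons were chosen with earlier results of these data known, so no p-value for MS or SHMT is independent of that choice.

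The labels say that volumes of both genotypes were paired at random on arrays. Deviations of same-numbered arrays correlated at r between -0.286 and 0.445 over 30 pairs and 3114 clones, with 11 pairs over 0.1. All 3 pairs were over 0.1 (0.236, 0.445 and 0.163) in 1 of 10 comparisons, xanthine oxidase 4 h against the abiotic control. Alternatives covered scaling, centring, array weights, groups fitted alone, the filter, the replicate block, single spots and leaving out each array.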

Additional observations from a re-analysis of the deposited data

Results flagged for a closer look

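These 22 of 60 differences between groups in the effect of silencing passed an adjusted p of 0.05 in limma. Across the same comparisons, between 0.0563% and 27.7% of all clones were called. The symbols were chosen with earlier results in view. The MS clones share their gene assignment and the comparisons share arrays, so the 22 are not independent of each other. With megaspermin for 4 h against the biotic control, MS clones 1 to 5 were higher by 0.67, 0.82, 0.90, 0.75 and 0.64. With megaspermin for 8 h they were higher by 0.73, 0.62, 1.39, 0.75 and 0.92. Between the controls, MS clone 2 differed by -0.82 (biotic minus abiotic). From 4 h to 8 h of harpin, MS clones 2, 3 and 5 differed by 0.94, 0.87 and 0.89. With harpin against megaspermin at 4 h, MS clones 1 to 4 differed by -0.79, -1.09, -1.02 and -0.92, and SHMT by 0.79. At 8 h, MS clones 1, 3 and 4 differed by -0.52, -0.64 and -0.50. Groups of 3 arrays are too small for a test of a single outlying array.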

How the results depend on the processing

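No direction of a called difference reversed under any alternative run. The count of the 6 MS and SHMT clones past the threshold moved as follows, the use of single spots having been added after seeing the data. With arrays scaled to a common spread it was 5 for the biotic against the abiotic control (reported 1; MS clones 2 to 5 and SHMT), 1 for xanthine oxidase 8 h against the abiotic control (reported 0; MS clone 1) and 1 for harpin against megaspermin at 8 h (reported 3; MS clone 3 was left). With array weights these counts were 5, 2 and 1; the 1 is SHMT (0.66, adjusted p = 0.0281 in limma), while MS clones 1, 3 and 4 lost their calls (0.0898, 0.0579 and 0.0818). With both groups fitted alone they were 2 for the controls (MS clone 2 and SHMT) and 0 for the 8 h elicitors, and SHMT lost its call between the 4 h elicitors. Second spots alone gave 1 for harpin 4 h against the biotic control and 1 for megaspermin 8 h against 4 h (reported 0 for both), and first spots gave 1 for the 8 h elicitors. Scaling moved the mean of the MS clones to 1.08 in the abiotic control, 0.89 after xanthine oxidase for 4 h and -0.68 with wild-type megaspermin. Leaving out single arrays gave 3 to 5 clones for megaspermin 4 h and 4 to 5 for 8 h against the biotic control, 0 to 2 for the controls, 2 to 4 for harpin 8 h against 4 h, 0 to 1 for megaspermin 8 h against 4 h, and, between elicitors, 4 to 5 at 4 h and 0 to 3 at 8 h; for harpin 4 h and both xanthine oxidase times the range was 0 to 0. With the replicate number as a block the counts were 4 for megaspermin 4 h, where clone 5 lost its call (adjusted p = 0.0501 in limma), and 5 for megaspermin 8 h, and the block changed no other member call. SHMT passed for megaspermin against the biotic control with array weights at 4 h (-0.83, adjusted p = 0.000461 in limma) and, at 8 h, with scaling (-0.73, 0.0166) or both groups alone (-0.52, 0.0449); with scaling MS clone 2 lost its call there, so the count stayed at 5. Counts over all clones rose with array weights, for megaspermin 4 h from 1437 to 3511, for xanthine oxidase 4 h from 5 to 700, for xanthine oxidase 8 h from 25 to 1862, for the controls from 383 to 1433, for harpin 4 h from 1198 to 2345, for harpin 8 h against 4 h from 1565 to 2432, for megaspermin 8 h against 4 h from 1292 to 2177, and for the 4 h elicitors from 1276 to 2292. With scaling they were 126, 121 and 950 for xanthine oxidase 4 h, 8 h and the controls, and with both groups alone 9, 4 and 741, with 667 for megaspermin 8 h against 4 h and 630 for the 4 h elicitors. For xanthine oxidase 4 h, the block gave 0, and either spot 2. Leaving out single arrays gave, over all clones, 0 to 4 for xanthine oxidase 4 h, 7 to 80 for 8 h (7 without abiotic control array 1, 80 without xanthine oxidase array 2, with every array moving it by over 1.5 times), 182 to 290 for the controls (182 without biotic control array 1, and moved by over 1.5 times by every array but biotic control array 3) and 818 to 1162 for megaspermin 8 h against 4 h (818 without 8 h array 2, 856 without 4 h array 1). The cause of these changes was not tested. The number of arrays limits the precision, and signal over background is not given in the sources used here.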

Other observations

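Named clones with group means most like those of the MS clones over the 10 groups were LOC102577684 (Pearson's r = 0.927), DD (0.883), LOC102577539 (0.882), the plasma membrane proton pump PHA2 (0.881) and LOC102578769 (0.878). They were sought among 546 named clones. LOC102577539 and PHA2 each had 2 clones there, and their other clones did not reach this list. Of all 5222 clones with values in all groups, named or not, 157 had r of at least 0.8. For SHMT the most similar named clones were LOC102578876 (0.831), LOC102582373 (0.825), LOC102596978 (0.791), LOC102577567 (0.788) and SS16 (0.731), and 14 of the 5222 clones had r of at least 0.8. LOC102578876 had 2 clones and LOC102582373, LOC102577567 and SS16 had 3 each, and their other clones did not reach the list. These similarities are descriptions over group means that share arrays and mix the ratios of the genotype and wild-type arrays.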
